A study of Homo sapiens with 4 samples.

Results

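The genes described here are 10 matrix metalloproteinases, MMP1, MMP2, MMP3, MMP7, MMP9, MMP10, MMP12, MMP13, MMP14 and MMP15, out of 17185 named genes on the arrays. They were taken by symbol, through the RefSeq transcript that each probe set carries, and each of the 10 had 1 probe set of 3 probes. The cells were KYSE410, an established human line derived from a squamous cell carcinoma of the oesophagus, grown in RPMI 1640 with fetal bovine serum and antibiotics. The 4 groups were cells kept for 24 h with PBS (phosphate-buffered saline, the solvent control), TNFα (tumour necrosis factor α), IL1β (interleukin 1β) or LPS (lipopolysaccharide, from the outer membrane of Gram-negative bacteria), and the study asked which mRNAs respond to inflammatory stimuli. The sources used here do not state the doses. RNA of each group was measured on 1 one-colour NimbleGen array, so a difference between arrays has no replicate check, no error and no p-value, and precision is limited by the number of arrays. The 3 comparisons with PBS share 1 PBS array, and whatever set that array apart enters all of them. A carcinoma line in culture is used as tumour epithelium without the stromal and immune cells that make many of these enzymes in tissue. The arrays nonetheless held signal for markers of other cell types, given below, and its source was not tested.

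Matrix metalloproteinases are zinc-dependent enzymes that cut collagens, laminins, proteoglycans and many cell surface proteins. They are made as inactive precursors whose prodomain has to be removed, and TIMPs (tissue inhibitors of metalloproteinases) block the active forms. Several of their genes are known to respond to inflammatory cytokines through AP-1 and NF-κB, and in squamous carcinomas the enzymes are best known for the breakdown of basement membrane and stroma at the invading edge.

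Values are RMA intensities (robust multi-array averages of the probes of a set, on a linear scale) or their log2. Levels of different genes are not compared, because probes differ in brightness. A gene is called higher or lower past a size rule, a difference of 2-fold or more between 2 arrays with the brighter one at or above a floor of 260.5 (8.02 on the log2 scale), the median over genes of their mean level. A value is called near background at or below 2 times the random-sequence control probes of its array, a limit of 108 on the PBS array and of 112 to 113 on the others. Of the 10 genes, 1 (MMP13) reached the floor on all 4 arrays and 3 (MMP2, MMP3 and MMP14) on 3 of them. The other 6 stayed below it throughout, and 3 of these, MMP7, MMP9 and MMP12, were near background on all 4 arrays.

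All 14 squamous epithelial markers checked reached the floor on the PBS, IL1β and LPS arrays and 13 of 14 on the TNFα array. The arrays also held signal for markers of other tissues. Of 12 heart muscle genes, 9 reached the floor after PBS, 8 after TNFα, 9 after IL1β and 4 after LPS. Of 19 leukocyte and myeloid markers, 4 reached it after PBS, 12 after TNFα, 11 after IL1β and 4 after LPS. The LPS array stood apart, with 415 genes at least 2-fold above and 290 at least 2-fold below each other array, against 36 to 108 above and 23 to 96 below for the other arrays.

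With TNFα, MMP3 and MMP14 were higher, and no member was lower. The same pair was higher with IL1β. With LPS, MMP3, MMP14 and MMP13 were higher and MMP2 was lower. Over all genes at the floor, the same rule called 3.37% higher and 3.4% lower with TNFα (of 9419), 3.13% and 3.57% with IL1β (of 9427), and 8.83% and 7.42% with LPS (of 9675). In each of these comparisons 4 of the 10 members could be called. MMP3 and MMP14 were below the floor with PBS and entered through the treated arrays, so their counts cannot be read as a share of the family. The median log2 difference over all 10 members was 0.40 with TNFα, 0.25 with IL1β and 1.28 with LPS, beside -0.03, -0.03 and 0.02 over all genes. These medians rest on genes below the floor, MMP9 and MMP15 for LPS. With the intensity of the random control subtracted, a step chosen after seeing the data, they were 0.04, 0.08 and 0.60. Over all genes the medians were then 0.04, 0.05 and 0.06. A result that fell below the control was set to it, so a gene near background on both arrays got only the difference of the controls. The values over all genes, and 0.04 for the members, are that difference and say nothing of the genes.

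**Figure D1:**
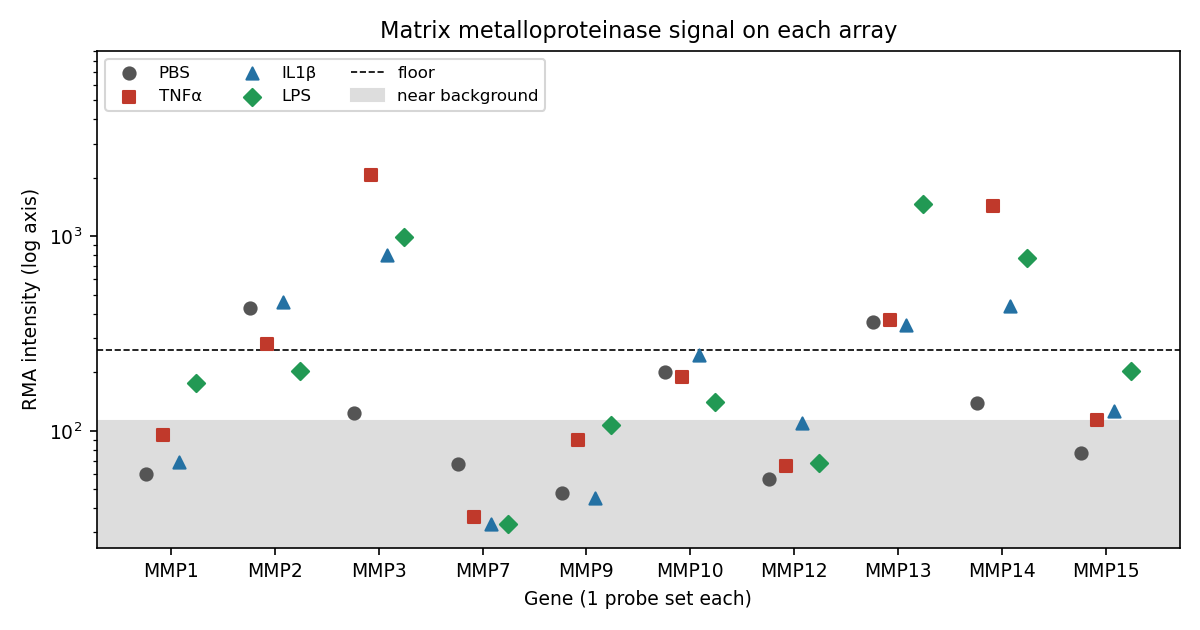
RMA intensity (log axis) of the 10 genes on the PBS, TNFα, IL1β and LPS arrays, 1 point per array, with the floor as a dashed line and values near background in the grey band. MMP3 and MMP14 lie below the floor with PBS and above it on each stimulated array, whereas MMP13 stands out with LPS and 6 genes never reach the floor.

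Among the stromelysins, MMP3 (stromelysin 1, which cuts proteoglycans, laminin and fibronectin and activates other metalloproteinase precursors) had an intensity of 124 after PBS, 2055 after TNFα, 802 after IL1β and 988 after LPS. The PBS array was the lowest and the TNFα array the highest, and all 3 stimulated arrays were above the PBS array. MMP3 was 16.6-fold higher with TNFα, 6.48-fold with IL1β and 7.98-fold with LPS than with PBS. Its difference ranked 5 of 9419 genes at the floor with TNFα, 24 of 9427 with IL1β and 39 of 9675 with LPS. The PBS value was 2.29 times the random control, close to the limit for near background. After the control intensity was subtracted the folds were 28.7, 10.7 and 13.4, so the sizes moved by over 1.5 times with the treatment of background while the direction held.

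MMP10 (stromelysin 2, a close relative of MMP3 with similar substrates) did not follow it. Its intensity was 201 after PBS, 189 after TNFα, 246 after IL1β and 140.4 after LPS. None of these reached the floor, and the highest and lowest arrays, IL1β and LPS, differed 1.75-fold.

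Among the collagenases, MMP13 (collagenase 3, which cuts fibrillar collagens, above all type II) set the LPS array apart. Its intensity was 364 after PBS, 372 after TNFα, 349.9 after IL1β and 1474 after LPS. The PBS, TNFα and IL1β values lay within 0.09 of each other on the log2 scale, and the LPS value was 4.05-fold above PBS, 3.97-fold above TNFα and 4.21-fold above IL1β. The difference from PBS ranked 167 of 9675 genes, on an array where 8.83% of genes were called higher. MMP1 (interstitial collagenase, which cuts types I and III) was dim, at 59.9 after PBS, 95.4 after TNFα, 69.5 after IL1β and 176 after LPS. Its first 3 values were near background and the LPS value was not, at least 1.63-fold above PBS, taken at its limit. It stayed below the floor and was not called.

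The gelatinases cut denatured collagen and the type IV collagen of basement membranes. MMP2 (gelatinase A, usually made by stromal cells) had an intensity of 427 after PBS, 278 after TNFα, 458 after IL1β and 204 after LPS. The IL1β and PBS arrays were the highest and the LPS array the lowest, and MMP2 was 2.09-fold lower with LPS than with PBS. That difference lay just past the 2-fold limit and ranked 639 of 9675 genes on the lower side, and 7.42% of genes were called lower with LPS. It dropped under 2-fold with a repeated quantile normalization (log2 difference -0.99) and with an offset before log2 (-0.91). MMP9 (gelatinase B, abundant in neutrophils and macrophages) was near background on each array, at 47.9 after PBS, 89.5 after TNFα, 45.2 after IL1β and 107 after LPS. No fold is given for it.

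MMP14 (membrane-type 1 MMP, a collagenase of the cell surface that activates the MMP2 precursor) showed the same order of arrays as MMP3. Its intensity was 139.5 after PBS, 1432 after TNFα, 436 after IL1β and 772 after LPS. It was 10.3-fold higher with TNFα, 3.12-fold with IL1β and 5.53-fold with LPS than with PBS, and ranked 12, 100 and 91 among the genes at the floor. After subtraction of the control intensity these folds were 16.1, 4.44 and 8.37. The IL1β value was the lowest of the 3 and did not reach a floor set at the 75th percentile of genes. MMP2, whose precursor MMP14 activates, was not called higher on any array where MMP14 was (278, 458 and 204 against 427 after PBS). MMP15 (membrane-type 2 MMP) was at 77.0 after PBS, 114 after TNFα, 126 after IL1β and 203 after LPS. The PBS array was again the lowest, but all 4 values were below the floor, and LPS was at least 1.87-fold above PBS, taken at its limit.

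MMP7 (matrilysin, an epithelial enzyme that lacks the hemopexin domain) had 67.6 after PBS, 35.8 after TNFα, 33.3 after IL1β and 33.2 after LPS. MMP12 (macrophage elastase) had 56.2 after PBS, 66.0 after TNFα, 109 after IL1β and 68.2 after LPS. All of these were near background, so neither gene has a fold and their order across arrays carries no information.

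**Figure D2:**
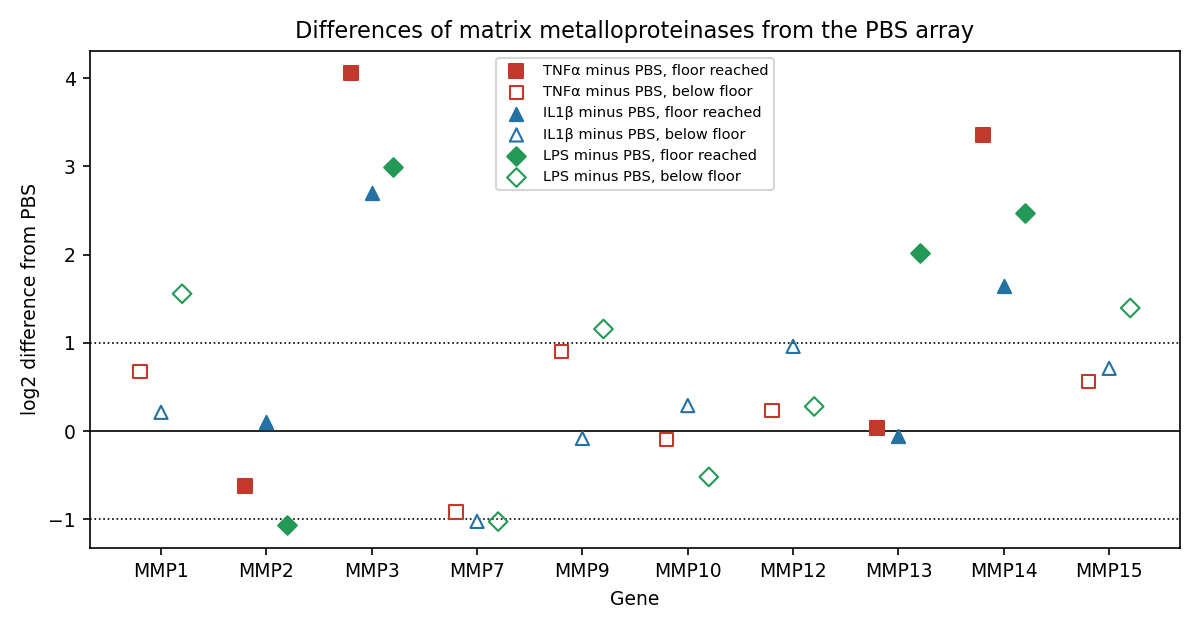
Log2 difference of each gene from the PBS array with TNFα, IL1β and LPS. Filled symbols reached the floor on at least 1 of the 2 arrays, open symbols did not, and dotted lines mark 2-fold. MMP3 and MMP14 lie above the upper line with each stimulus, MMP13 with LPS, and MMP2 just below the lower line with LPS.

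The PBS array was the lowest of 4 for 5 of the 10 genes (MMP1, MMP3, MMP12, MMP14 and MMP15), and the LPS array the highest for 4 (MMP1, MMP9, MMP13 and MMP15). Over the 10271 genes at the floor on at least 1 array, PBS was the lowest in 21.2% and LPS the highest in 38.8%. Among the members in that set (MMP2, MMP3, MMP13 and MMP14), PBS was the lowest for MMP3 and MMP14 and LPS the highest for MMP13. The other members with either order, MMP1, MMP9, MMP12 and MMP15, were below the floor on all 4 arrays, so they are not comparable with these shares.

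**Figure D3:**
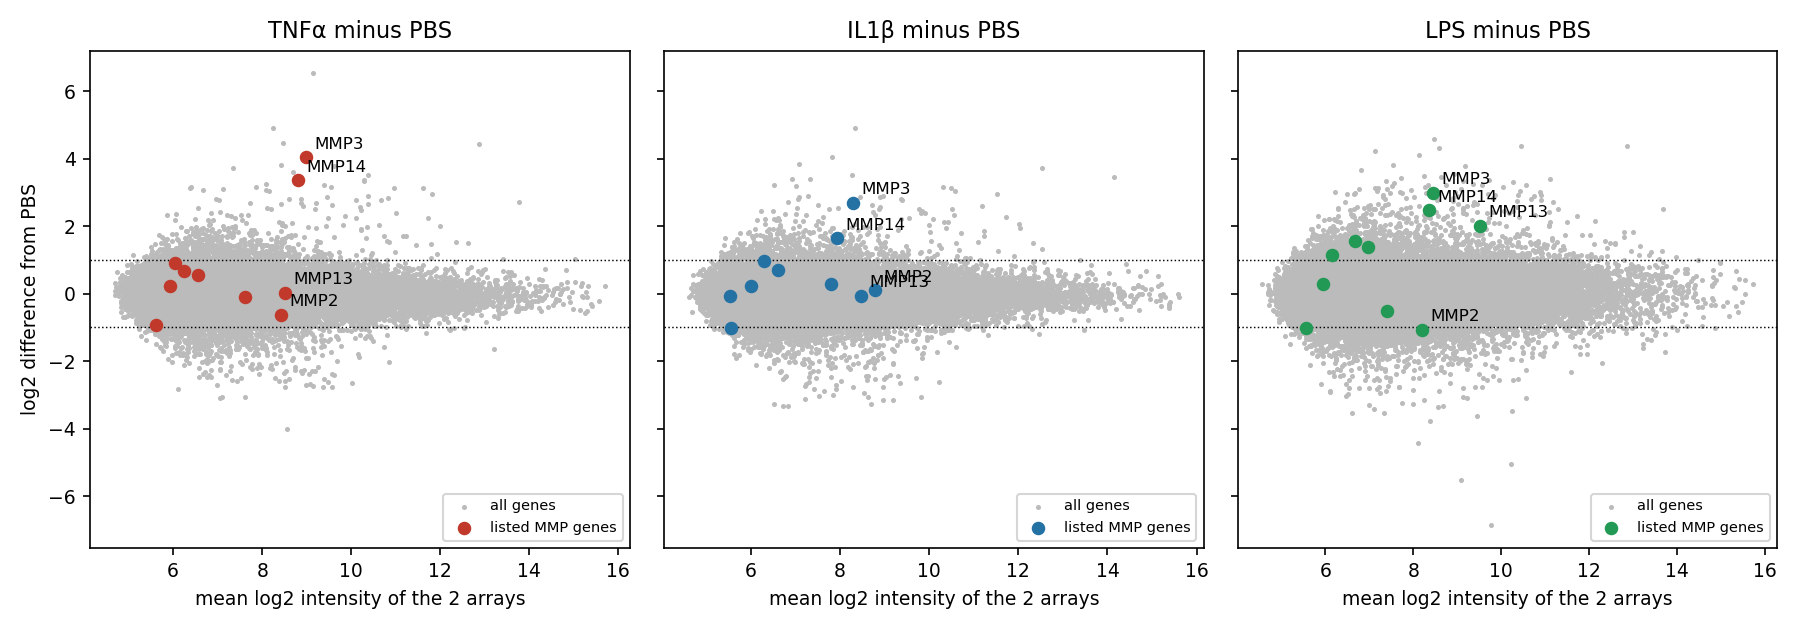
Log2 difference from PBS against the mean log2 intensity of the 2 arrays for 17185 genes (grey) and the 10 metalloproteinases (coloured), 1 panel per stimulus, with dotted lines at 2-fold. Members that reached the floor are named. MMP3 and MMP14 lie at the upper edge with TNFα, whereas the spread of all genes is wider with LPS.

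Direct comparisons between stimuli do not use the PBS array. Between TNFα and IL1β, MMP3 was 2.56-fold and MMP14 3.29-fold higher with TNFα, and no member was lower, where 1.87% of 9270 genes were called higher and 1.74% lower. MMP14 ranked 33 and MMP3 67 among those genes. MMP2 was 1.65-fold higher with IL1β and was not called. Between LPS and TNFα, MMP13 was higher and MMP3 2.08-fold lower with LPS, where 9.93% of 9655 genes were higher and 7.09% lower. MMP14 was 1.86-fold lower with LPS than with TNFα, under the threshold, and passed it with loess centring (log2 difference -1.02). Between LPS and IL1β, MMP13 was higher and MMP2 2.25-fold lower with LPS, where 10.5% of 9707 genes were higher and 7.45% lower. MMP3 (1.23-fold) and MMP14 (1.77-fold) were brighter with LPS than with IL1β and were not called.

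Of the 10 genes, 6 belong to a run of 9 neighbouring metalloproteinase genes on chromosome 11, whose order in RefSeq (GRCh38.p14, used for names and neighbours) is MMP7, MMP20, MMP27, MMP8, MMP10, MMP1, MMP3, MMP12 and MMP13. No other protein-coding gene lies between them in that table, and all 9 were measured. MMP3 and MMP13 reached the floor, and 7 did not. MMP3 was called higher with each stimulus. Its neighbours MMP1 and MMP12 were below the floor on every array and could not be called, so the rule cannot contrast them with MMP3. MMP13, next to MMP12, was called higher with LPS. MMP8 (neutrophil collagenase) had 187 after PBS, 157 after TNFα, 117 after IL1β and 25.4 after LPS, all below the floor.

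**Figure D4:**
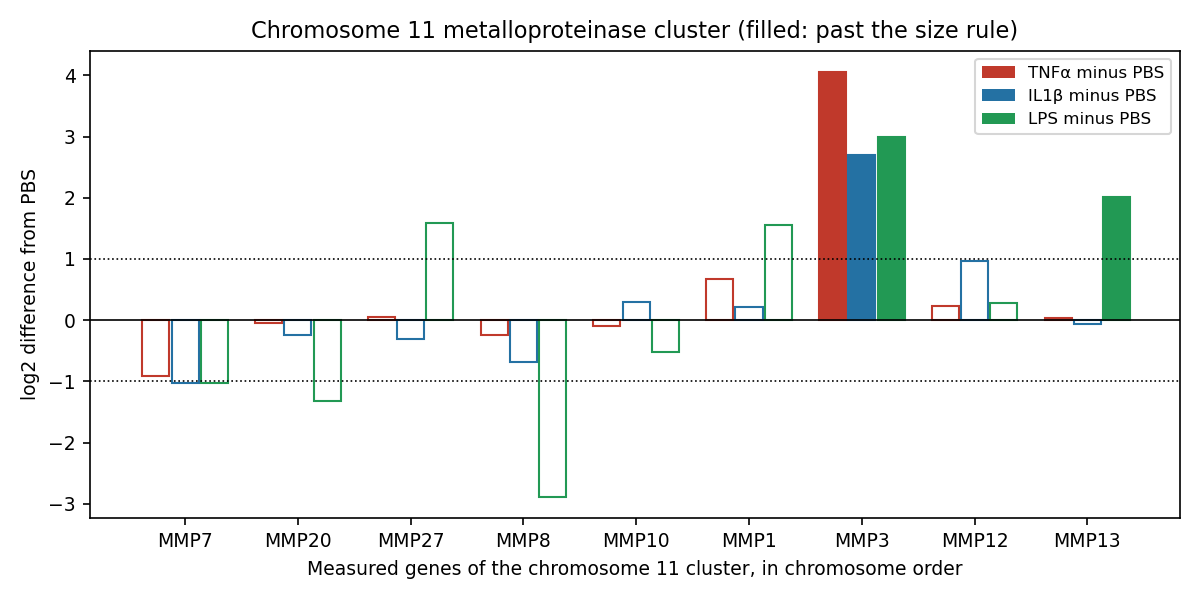
Log2 difference from PBS with TNFα, IL1β and LPS for the 9 genes of the chromosome 11 run, in chromosome order. Filled bars passed the size rule and open bars did not. Genes other than MMP3 and MMP13 were below the floor, so their bars are open even where they pass 2-fold. MMP3 is filled for each stimulus and MMP13 for LPS, between genes whose bars are open.

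The RefSeq table of promoters held 4 of the 10 genes, MMP7, MMP10, MMP14 and MMP15. The 250 bases before the annotated start are shown for MMP14, the gene among them that was called higher, and for MMP10 and MMP7, which were below the floor on all 4 arrays and could not be called, 5′ to 3′ on the strand of the gene (GRCh38.p14). Capitals mark matches on either strand to an AP-1 motif (TGANTCA), a GC box (GGGCGG) or a TATA box (TATAAA), and an NF-κB motif, searched too, had no match in these windows.
MMP14, chr14:22836335-22836584, plus strand: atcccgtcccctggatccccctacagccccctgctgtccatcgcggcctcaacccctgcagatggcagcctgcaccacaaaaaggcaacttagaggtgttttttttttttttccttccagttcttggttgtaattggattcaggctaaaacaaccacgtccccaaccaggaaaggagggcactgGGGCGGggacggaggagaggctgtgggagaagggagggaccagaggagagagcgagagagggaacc
MMP10, chr11:102780629-102780878, minus strand: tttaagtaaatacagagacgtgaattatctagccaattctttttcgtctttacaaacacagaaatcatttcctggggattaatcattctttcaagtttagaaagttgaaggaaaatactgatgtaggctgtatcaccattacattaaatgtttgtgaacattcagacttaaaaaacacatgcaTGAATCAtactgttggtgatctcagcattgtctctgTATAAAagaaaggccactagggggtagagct
MMP7, chr11:102530748-102530997, minus strand: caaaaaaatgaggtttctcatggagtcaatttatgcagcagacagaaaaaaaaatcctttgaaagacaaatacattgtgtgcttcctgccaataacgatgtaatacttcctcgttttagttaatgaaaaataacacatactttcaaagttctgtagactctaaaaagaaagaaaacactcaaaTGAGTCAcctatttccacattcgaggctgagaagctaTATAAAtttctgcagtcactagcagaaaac

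MMP7 and MMP10 each had 1 AP-1 match, in both at bases 67 to 61 before the start, and 1 TATA match, from base 30 in MMP7 and from base 31 in MMP10. MMP14 had neither and 1 GC box match, from base 66. MMP15 had 5 GC box matches and no match to the other motifs. The 250-base windows were 33.6% G and C in MMP7, 34.4% in MMP10, 56.8% in MMP14 and 74.8% in MMP15, beside a median of 58% over 35116 promoters. Of these promoters 6.57% held an AP-1 match, 42.6% a GC box, 10.7% a TATA box and 9.96% an NF-κB match. A match is a description of letters, and the arrays do not measure binding.

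The other genes of the pathway were described from lists. Beside the counts of each list stand the shares called over all genes at the floor. These were 3.37% higher and 3.4% lower with TNFα, 3.13% and 3.57% with IL1β, and 8.83% and 7.42% with LPS. Of 13 further metalloproteinase genes 11 were measured, and 2 or 3 of them could be called in each comparison with PBS. MMP28 (epilysin, a keratinocyte enzyme) was 2.38-fold higher with TNFα, from 221 to 526, and none was called with IL1β or LPS. The second probe set of MMP28 did not repeat it, with 195 against 184, and the mean of both sets was not called. MMP25 (a membrane-anchored leukocyte enzyme) had 454 after PBS, 493 after TNFα, 504 after IL1β and 586 after LPS and was called in no comparison.

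Inhibitors differed in both directions. Of 7 measured, 0 were higher and 1 lower with TNFα, 0 and 2 with IL1β, and 2 and 2 with LPS. Only 3 of the 7 could be called with TNFα, 3 with IL1β and 4 with LPS. TIMP2, which also takes part in MMP2 activation by MMP14, was at 1640.0 after PBS, 407 after TNFα, 544 after IL1β and 314 after LPS, and was lower with all 3 stimuli (4.03-fold, 3.02-fold and 5.22-fold). RECK, a membrane-anchored inhibitor, was 2.08-fold lower with IL1β and at least 2.33-fold lower with LPS, and lost both calls with a repeated quantile normalization. TIMP1 was 2.37-fold and TIMP3 at least 3.84-fold higher with LPS.

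Proteases and receptors that activate metalloproteinase precursors were called higher in 2 of 14 genes with LPS and in none with TNFα or IL1β. Of these 14, 9 could be called with TNFα, 9 with IL1β and 10 with LPS. PLAU (urokinase) was 5.53-fold and its receptor PLAUR 2.35-fold higher, and all 3 probe sets of PLAUR were higher with LPS, by 1.23 to 1.55 on the log2 scale. Whether the list differed between the stimuli was not tested.

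A list of 16 factors held AP-1, ETS and NF-κB factors together with CEBPB and RUNX2. In it 1 was higher and 2 lower with TNFα, 2 and 2 with IL1β, and 3 and 3 with LPS. Of the 16, 14 could be called with TNFα, 14 with IL1β and 15 with LPS. The AP-1 subunit FOSL2 was 2.66-fold higher with TNFα and 2.09-fold with IL1β, FOS 3.37-fold and CEBPB 3.24-fold higher with LPS, and JUNB 2.03-fold higher with IL1β and 2.15-fold with LPS. FOSL1 was 2.24-fold lower with TNFα and 2.23-fold with LPS. The ETS factor ETV5 was lower with each stimulus (2.39-fold, 2.25-fold and at least 2.73-fold) and ETS1 2.41-fold lower with IL1β. RELA, an NF-κB subunit, was 2.41-fold lower with LPS. With the offset before log2, FOSL2 and ETV5 lost the call with IL1β, ETV5 with TNFα, and JUNB with both IL1β and LPS.

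Of 11 ADAM and ADAMTS proteases measured, 2 were higher and none lower with TNFα, 2 and 1 with IL1β, and 3 and 1 with LPS. Only 4 of the 11 could be called with TNFα, 4 with IL1β and 5 with LPS. ADAM15 was 8.86-fold, 7.77-fold and 5.65-fold higher with TNFα, IL1β and LPS, and ADAM17, the sheddase that releases TNFα from the cell surface, 2.88-fold, 2.04-fold and 4.03-fold. The ADAM17 call with IL1β was lost with the offset. ADAM19 was 2.69-fold lower with IL1β, ADAMTS1 2.98-fold higher with LPS, and ADAM10 2.09-fold lower with LPS, a call lost with a repeated quantile normalization and with the offset.

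Of 21 substrates, 3 were lower with TNFα, 2 with IL1β and 4 with LPS, and 1 was higher, COL5A1, 7.93-fold with LPS. Of these 21, 13 could be called with TNFα, 13 with IL1β and 14 with LPS. Tenascin C (TNC) was 6.75-fold, 5.95-fold and 3.79-fold lower with TNFα, IL1β and LPS, and E-cadherin (CDH1), which metalloproteinases can shed, 5.22-fold, 4.22-fold and 4.26-fold lower. Biglycan (BGN) was 6.36-fold lower with TNFα and 3.37-fold with LPS. Of 10 surface partners, 8 could be called in each comparison with PBS. Among them ITGB1, the β1 integrin chain, was higher with each stimulus (6.91-fold, 5.66-fold and 7.03-fold).

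**Figure D5:**
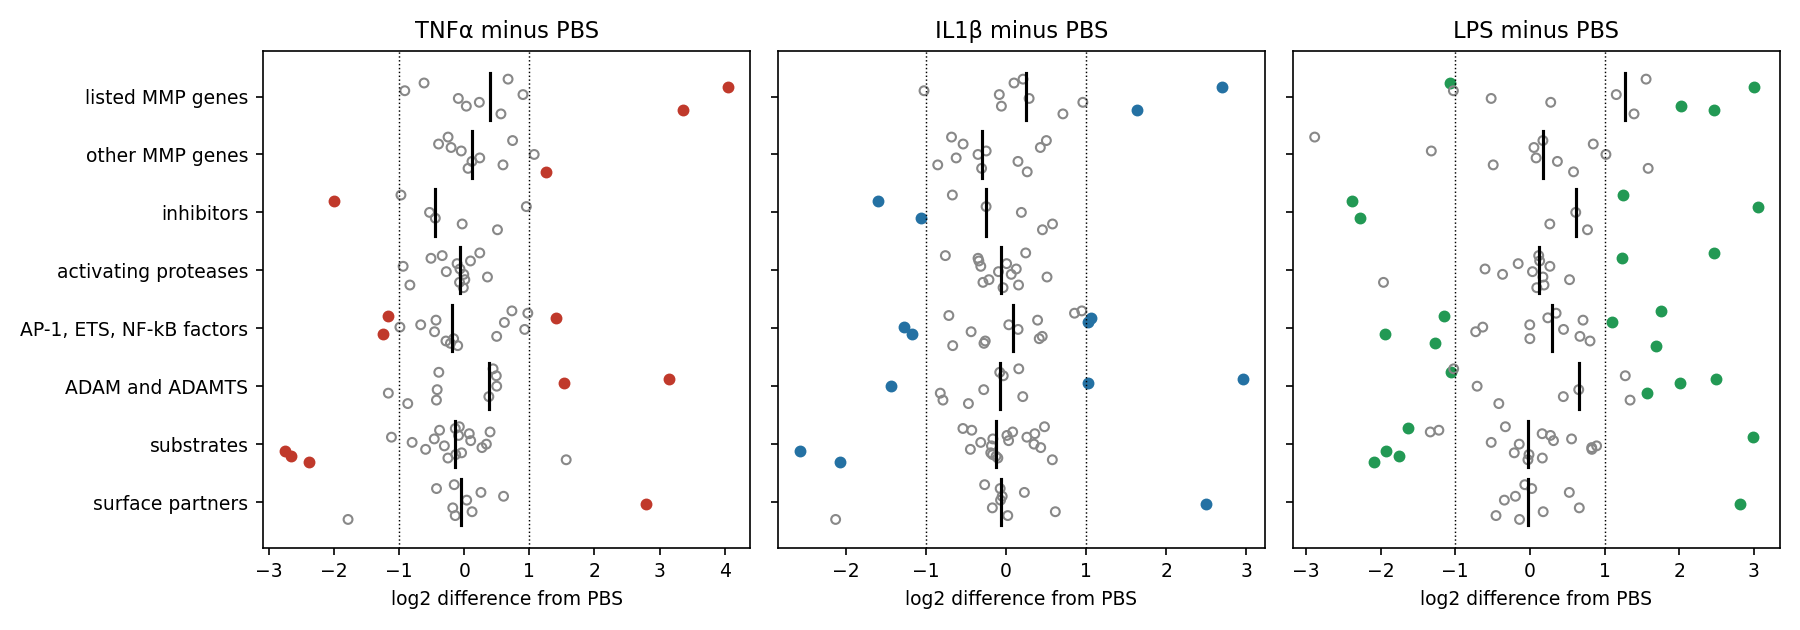
Log2 difference from PBS of each gene in the 8 lists, 1 panel per stimulus. Filled points passed the size rule, open points did not, black bars are list medians and dotted lines mark 2-fold. The filled points of the inhibitors and of the factors (AP-1, ETS, NF-κB, CEBPB and RUNX2) lie on both sides of 0 over the panels. Those of the surface partners are the single gene ITGB1.

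By the distance between mean-centred log2 levels over the 4 arrays, the gene most like MMP3 among 10270 others was the chemokine CXCL8 (distance 0.63), followed by MMP14 (0.76), FCN1 (0.81), CXCL2 (0.89) and ADAM15 (0.90). The genes most like MMP14 were STAT5A (0.36), IRF1 (0.51), CCL3 (0.63), TRAF2 (0.64) and FCN1 (0.69). CXCL8 had log2 levels of 8.62 after PBS, 12.15 after TNFα, 11.00 after IL1β and 11.93 after LPS. STAT5A had 8.60, 11.97, 9.81 and 11.01 in the same order. With 4 arrays many genes share an order, so likeness here is a description.

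FCN1, near both genes in this measure, is a monocyte lectin, and macrophages can make MMP9, MMP12 and MMP14. The summed intensity of the 19 leukocyte and myeloid markers was 10826 after PBS, 18919.9 after TNFα, 18095 after IL1β and 3759.6 after LPS. Of the 19, 9, 4, 6 and 12 were near background. LYZ alone made 6917, 5600, 10390 and 209 of these sums. Because probes differ in brightness, a sum follows its brightest genes, and the drop from PBS to LPS is largely that of LYZ. From PBS to TNFα the sum rose while LYZ fell, so that rise came from other markers. From PBS to IL1β both rose. ITGAM, LAPTM5 and CD3E were near background on all 4 arrays. With the cytokines, 7 of the 19 were higher and 1 lower for TNFα, and 8 and 1 for IL1β. Over all genes at the floor, 3.37% were higher and 3.4% lower with TNFα. These shares were 3.13% and 3.57% with IL1β, and 8.83% and 7.42% with LPS. All the markers called higher with the cytokines were below the floor with PBS and entered through the cytokine arrays. Among them FCN1 was 12.2-fold higher with TNFα and 3.87-fold with IL1β, and FCGR3A 13.7-fold and 3.44-fold. ITGB2 was the lower one, 2.43-fold and 5.46-fold. Of the 19, 12 could be called with TNFα, 12 with IL1β and 6 with LPS. The part of these markers in the MMP3 and MMP14 values with the cytokines was not tested. With LPS, 2 were higher, FCN1 (3.73-fold) and AIF1 (7.49-fold), and CD68, ITGB2, TYROBP and LYZ were lower. The part of these markers in the LPS values of MMP3 and MMP14 was not tested either. MMP9 and MMP12 were near background on each of these arrays. Fibroblasts also make MMP2, MMP3 and MMP14, and the 12 fibroblast markers summed to 10293 after PBS, 6271 after TNFα, 9676 after IL1β and 3491 after LPS, with 5, 4, 5 and 7 near background and THY1, FAP and LUM near background on all 4. Only 4 of these 12 could be called in each comparison with PBS. None of the 12 was called higher with any stimulus, and VIM was lower with TNFα and LPS, COL1A2 with LPS and S100A4 with IL1β. VIM alone made 6935, 3298, 7326 and 1389 of the fibroblast sums after PBS, TNFα, IL1β and LPS, so these sums largely follow VIM. MMP2 was lowest on the LPS array, as the fibroblast sum was, and the part of such cells in that value was not tested. In bulk RNA, fewer cells of a type and less RNA per cell cannot be told apart.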

How the data were processed

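The authors deposited RMA intensity values on a linear scale, 1 per probe set and array, per the file headers and names, and a series table with identical intensity values for all 45033 probe sets. The RMA software, its settings and the array design are each not given in the sources used here. RMA in its usual form equalises the distributions of arrays, which makes each difference one relative to most genes. The medians of all genes differed by at most 0.03 log2 between arrays.

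Probe sets were matched by unversioned transcript accession to RefSeq (GRCh38.p14). Of 45033, 18866 matched 1 symbol and 26167 did not. A gene took its probe set of highest mean log2 intensity. All 6 pairs of arrays were compared by the size rule over 17185 genes, with no test because each group is 1 array. The code of the rule was run on simulated data with an assumed noise. That run cannot say how often the rule errs on these arrays. Named were all 10 genes, per list and comparison up to 4 genes past the size rule (then given in the other comparisons too), and the 5 most like genes of each of the 2 members with the widest range. MMP8, MMP25 and the named cell type markers were chosen after their values were seen. Members and lists were chosen with earlier results of these data known. A fold against a value near background was computed against the limit and is given as "at least". Promoters of 6 members and protein sequences were not analysed here. Alternatives are given at the end. The tools were pandas 2.3.3 and numpy 2.4.6 in Python 3.11.15, with statsmodels 0.14.6 for loess and matplotlib 3.10.9 for figures.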

Additional observations from a re-analysis of the deposited data

How the results depend on the processing

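No paired analysis was possible because each group is 1 array and the labels carry no replicate numbers. Only loess centring, the repeated quantile normalization, the offset and the subtraction of the random control could change a log2 difference of the 10 genes. The other alternatives, a mean of all probe sets and the series table among them, left it as it was. No called difference of the 10 genes changed sign in the alternatives run. Uncalled differences of MMP1, MMP7, MMP9 and MMP12, whose dim values were near background, did in some comparisons. An example is MMP7 with LPS against PBS, from -1.02 to 0.06 with the random control subtracted. That step set both MMP7 values to the control intensity of their array, so 0.06 is the difference of the controls and not of MMP7. MMP3 with each stimulus, MMP14 with TNFα and LPS, and MMP13 with LPS kept their call against PBS in each alternative. Over these, the log2 difference from PBS of MMP3 ran from 3.59 to 4.84 with TNFα, from 2.29 to 3.42 with IL1β and from 2.57 to 3.74 with LPS, and that of MMP14 from 2.96 to 4.01, 1.35 to 2.15 and 2.11 to 3.07. That of MMP13 with LPS ran from 1.88 to 2.19.

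Several counts moved with the floor, the threshold or the scaling. Without a floor, 6 genes were higher and 2 lower with LPS than with PBS (MMP1, MMP9 and MMP15 added to the higher, MMP7 to the lower), 1 (MMP7) was lower with IL1β, and 3 were higher with LPS than with IL1β. These additions were near background on at least 1 of the arrays. With a floor at the 75th percentile, 1 gene was higher with IL1β than with PBS, and 0 were lower with LPS than with PBS or IL1β. With an offset of the 10th percentile before log2, 0 were lower with LPS than with PBS or IL1β, and with a repeated quantile normalization 0 were lower with LPS than with PBS. With loess centring 2 genes were lower with LPS than with TNFα. At 1.5-fold, 1 was lower with TNFα than with PBS and than with IL1β, 2 were lower with LPS than with TNFα and 2 higher with LPS than with IL1β. At 3-fold, 1 was higher with TNFα than with IL1β, and 0 were lower with LPS than with PBS, TNFα or IL1β. Subtracting the random control, chosen after seeing the data, moved no count. The dim PBS values of MMP3 and MMP14 limit how well their folds are known, and 6 genes were too dim to be called.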
